A study of Mus musculus with 12 samples.

Results

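The COP9 signalosome is a complex that strips the small protein NEDD8 from cullins, the scaffolds of the cullin-RING ubiquitin ligases. Cycles of NEDD8 attachment and removal let these ligases exchange the receptors that choose which proteins are ubiquitinated. The genes of its 10 mouse subunits were followed here through the spinal cord of mice with a mutant MFN2 transgene. They were chosen by symbol as Gps1, Cops2, Cops3, Cops4, Cops5, Cops6, Cops7a, Cops7b, Cops8 and Cops9, and each matched 1 Ensembl gene. The set is 10 of the 49548 genes counted, and all 10 were among the 15942 genes that passed the filter on low counts. It was drawn up because Cops9 was lower in every MFN2 than in every WT library. That pattern is therefore given as a description of Cops9 with no test, and tests against WT mice are reported for the other 9 subunits.

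Bulk RNA was sequenced from the spinal cord of 12 untreated mice at 30 days of age, with 1 library per mouse. The 8 MFN2 mice are labelled CMT2A and carry the transgene Tg(Eno2-MFN2*R94Q)L51Ugfm on a B6;D2 background, in which the rat Eno2 promoter drives human MFN2 with the R94Q change mainly in neurons. They are hemizygous and keep both copies of their own Mfn2, and the 4 WT mice, labelled C57BL/6 and described by the study as littermates, carry no transgene. The libraries of MFN2 mice held 19359454 to 26738930 counts each and those of WT mice 19453238 to 23564568. The count tables hold mouse genes, so the human transgene was not seen. Mouse Mfn2 gave a log2 difference of -0.05 between MFN2 and WT mice (SE 0.065, adjusted p = 0.733 by the quasi-likelihood test of edgeR, Benjamini-Hochberg), which does not check the labels.

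The libraries fall in a first run of numbers, 41 to 47, and a second, 72 to 76. The first run holds 3 MFN2 mice (41, 42 and 43) and the 4 WT mice (44 to 47), and the second holds 5 MFN2 mice and no WT mouse. What the numbers stand for is not given, and the second run and the genotype cannot be told apart. MFN2 library 43 stood apart from all others. Its 8 forebrain markers summed to 4685 CPM (counts relative to library size, scaled by the trimmed mean of M-values), against 108.5 to 207 CPM in the other 11 libraries. Its 7 caudal Hox genes summed to 39.7 CPM against 229 to 296 CPM, and its 6 motor neuron markers to 35.5 CPM against 154 to 370 CPM. The sum of 3 Schwann cell markers was 37.8 CPM in library 43 and 58.9 CPM in library 73, and 1.63 to 2.86 CPM in the other 10. Skeletal muscle markers, led by Myh4, were at 182 CPM in WT library 47 and 168 CPM in library 73. No marker of the lists was at 0 in every library. Some results that rest on library 43 are given with and without it, and the others include it unless said otherwise.

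Gps1, Cops2, Cops3, Cops4, Cops7a, Cops7b and Cops8 encode subunits with a PCI domain, the fold through which they assemble. Cops5 encodes the metalloprotease that cuts NEDD8 from the cullin, and Cops6 its catalytically inactive MPN partner. Cops7a and Cops7b are alternative forms of the same position. Cops9, also called CSNAP, is a very small subunit. The lid of the proteasome and the translation initiation factor eIF3 are built from the same PCI and MPN folds.

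The genes were placed on GRCm38 with the GENCODE M21 annotation. Cops9 (ENSMUSG00000073616) lies on the minus strand at chr1:92637145-92641985, and 3 other subunits lie on the same chromosome, Cops5 at chr1:10024601-10038168, Cops7b at chr1:86582904-86609375 and Cops8 at chr1:90602981-90613341. Gps1 (chr11:120784272-120789102) and Cops3 (chr11:59817795-59839838) lie on chromosome 11, and Cops4 (chr5:100518309-100547803) and Cops6 (chr5:138161071-138164646) on chromosome 5. Cops2 lies at chr2:125830304-125859139 and Cops7a at chr6:124958413-124965538. Exons of 4 subunits share bases with a gene on the opposite strand, and whether counting used strand is not stated. The largest such shares are 279 bases (8.08% of the exon bases) for Cops3 with Gm16062 and 182 bases (4.83%) for Cops5 with Cspp1. The processed pseudogene Gm9816 is 99.8% identical to Gps1 over 1414 bases, so Gps1 reads could be lost. It held 8 to 23 counts per library against 1091 to 1597 for Gps1, and the loss of shared reads was not tested.

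RefSeq promoter windows on GRCm38.p6 matched 9 of the 10 subunits. In the 250 bases before the start site, the ETS core CCGGAA, read on both strands, was in 7 of the 9. It was in 12.22% of all 27025 promoters of the same length and in 21.05% of the 11317 promoters of tested genes. The GC box GGGCGG was in 5 of the 9 (58.74% of promoters of tested genes) and the YY1 motif AAGATGG in 3 (4.21%). The CCAAT box was in 2 of the 9, the windows of Cops9 and Cops4 (36.15% of promoters of tested genes), and is not marked below. The E-box CACGTG was in 1 (8.28%). TATAAA, the CRE TGACGTCA and the NRF1 consensus were in none of the 9 windows. A match is a run of letters and not evidence of binding. The windows of Cops9 and Cops4 are shown because these genes differed in opposite directions between the runs of MFN2 libraries described below, Cops4 not past the threshold and Cops9 not tested, while both windows hold the same core, at bases -8 and -167 from the start site. The Cops9 window is chr1:92641986-92642235 on the minus strand with 57.6% GC, the Cops4 window is chr5:100518059-100518308 on the plus strand with 51.2% GC, and capitals mark the ETS core.
Cops9: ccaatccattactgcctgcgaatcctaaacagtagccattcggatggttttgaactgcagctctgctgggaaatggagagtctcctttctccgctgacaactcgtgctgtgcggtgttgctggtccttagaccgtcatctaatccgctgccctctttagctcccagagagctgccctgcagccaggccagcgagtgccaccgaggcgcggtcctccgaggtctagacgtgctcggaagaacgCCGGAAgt
Cops4: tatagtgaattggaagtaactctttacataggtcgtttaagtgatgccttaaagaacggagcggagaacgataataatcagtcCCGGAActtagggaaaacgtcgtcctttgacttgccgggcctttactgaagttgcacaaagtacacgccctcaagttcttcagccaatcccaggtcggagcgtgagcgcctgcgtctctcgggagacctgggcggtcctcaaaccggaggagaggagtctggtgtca

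Per length, the subunits were not expressed at 1 level. RPKM, the scaled CPM divided by the length of all annotated exons in kilobases, were computed, and the mean over the 12 libraries was highest for Cops2 (34.99 RPKM) and lowest for Cops7b (2.04 RPKM). Cops7a was at 25.0 RPKM, Gps1 at 20.8, Cops6 at 19.5, Cops3 at 16.7, Cops5 at 12.3, Cops4 at 11.97, Cops8 at 11.0035 and Cops9 at 10.04 RPKM. Cops2 was above Cops7a in 11 of 12 libraries, Cops7a above Gps1 in 12, Gps1 above Cops6 in 10, Cops6 above Cops3 in 12 and Cops3 above Cops5 in 12. The order of Cops5, Cops4, Cops8 and Cops9 did not hold across libraries, each being above the next in 7, 7 and 8 of 12. Cops7b was below Cops9 in all 12 libraries. These places depend on the length used. Cops9 has 1499 annotated exon bases but a principal transcript of 438 bases, and with that length it was at 34.4 RPKM and ranked 4 instead of 9. On principal transcripts Cops3 went from rank 5 to 3, at 34.99 RPKM, above Gps1 at 30.005 and Cops6 at 27.6 RPKM, which went from ranks 3 and 4 to 6 and 7, so that the order of Cops6 and Cops3 given above was turned round. Cops2, Cops7a and Cops7b kept ranks 1, 2 and 10 with either length, at 59.9, 37.4 and 2.09 RPKM on principal transcripts.

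**Figure D1:**
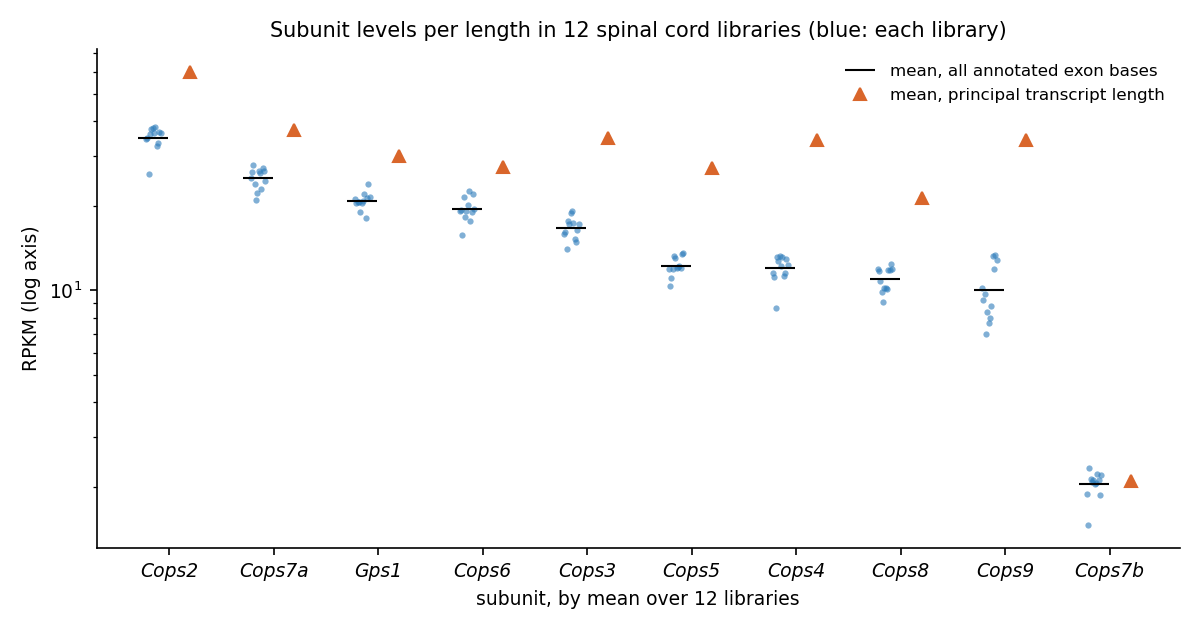
RPKM on a log axis for each subunit, ordered by the mean over 12 libraries. Blue points are libraries and black bars their means with all annotated exon bases (Cops2 34.99, Cops7b 2.04), and orange triangles are means with the length of the principal transcript, which lift Cops9 from 10.04 to 34.4 RPKM.

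Cops9 was at 19.9, 17.8, 20.1 and 19.3 CPM in WT libraries 44 to 47. In the first run of MFN2 libraries it was at 15.3, 13.8 and 14.5 CPM in 41, 42 and 43. In the second run it was at 10.5, 12.6, 11.5, 11.9 and 13.2 CPM in 72 to 76. All 8 MFN2 libraries lay below the lowest WT library, and library 43 lay among the other MFN2 libraries of its run. Its mean was 19.3 ± 1.03 CPM in the 4 WT and 12.9 ± 1.61 CPM in the 8 MFN2 libraries (± SD), and the log2 difference was -0.58 (SE 0.096). These levels rest on 239 to 457 counts per library. Of the 15942 genes tested, 1.07% were lower in every MFN2 than in every WT library, a share from which nothing is read for Cops9, since it was chosen for that pattern. Without library 43 the difference was -0.60 (SE 0.094). It was -0.39 (SE 0.089) for the first run of MFN2 libraries and -0.70 (SE 0.078) for the second, each against the same 4 WT libraries.

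**Figure D2:**
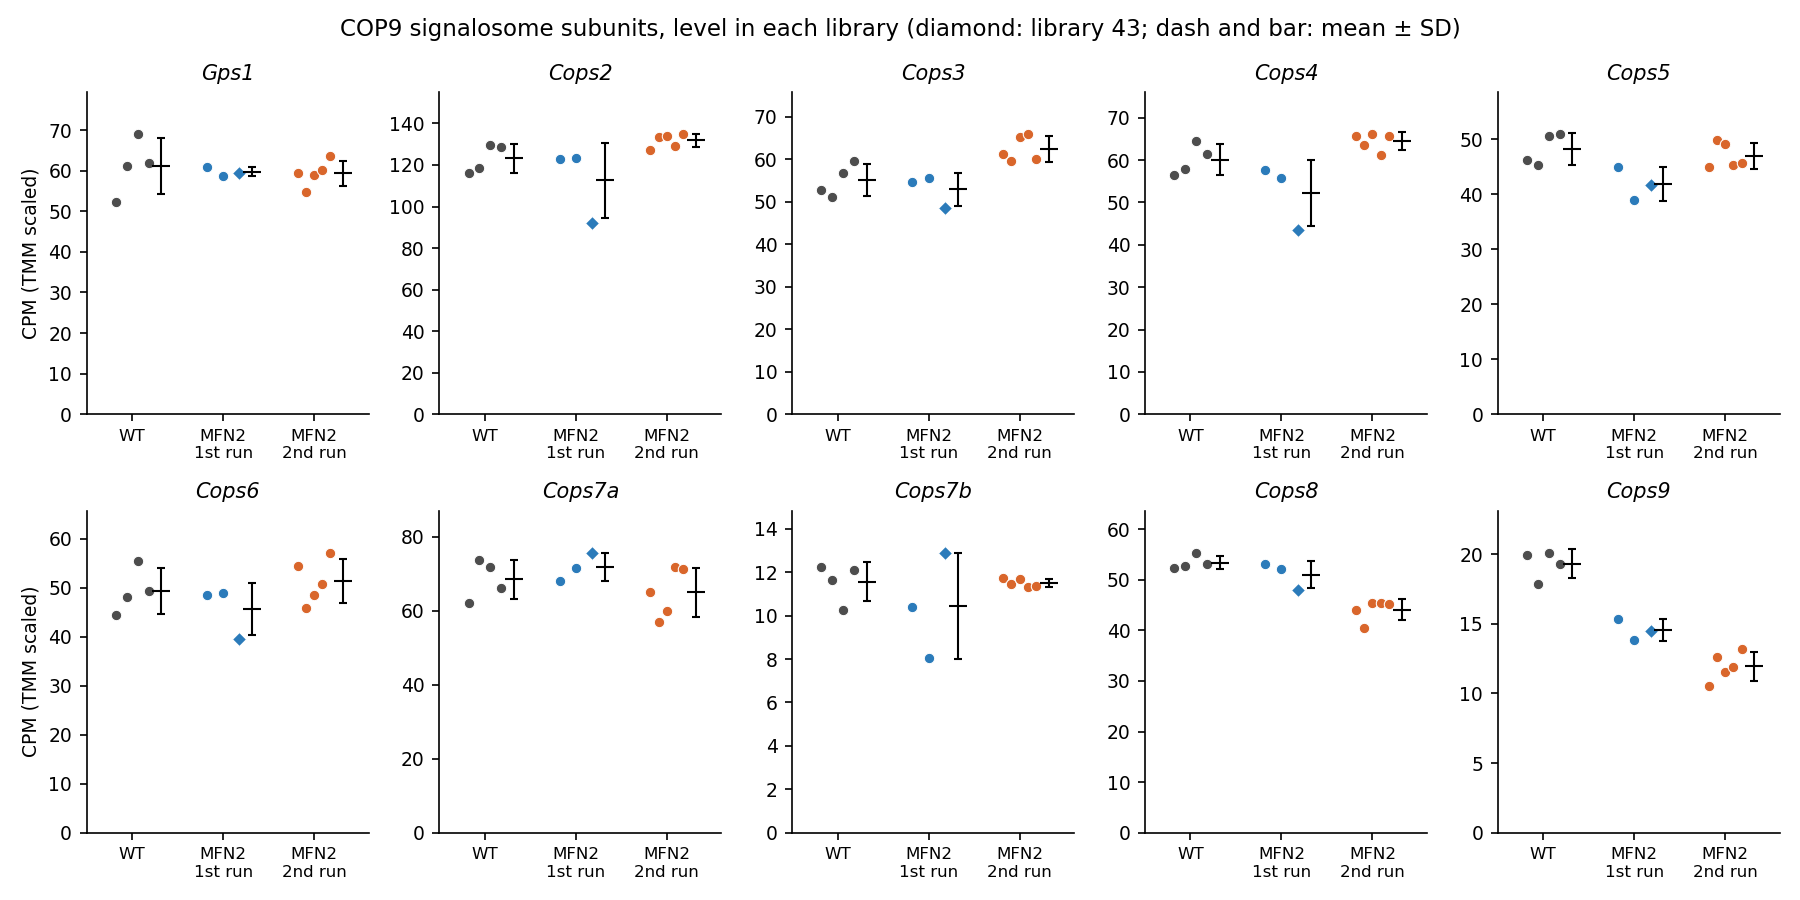
CPM of each subunit in every library, on axes that start at 0, for WT (grey, n = 4), MFN2 first run (blue, n = 3, diamond for library 43) and MFN2 second run (orange, n = 5), with mean and SD. Cops9 is at 17.8 to 20.1 CPM in WT and 10.5 to 15.3 CPM in MFN2 libraries, Cops8 is at 40.5 to 45.5 CPM in the second run and at 47.9 to 55.4 CPM elsewhere, and the lowest Cops2 and Cops4 values are those of library 43.

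None of the other 9 subunits passed the test between all 8 MFN2 and the 4 WT mice. At a Benjamini-Hochberg adjusted p of 0.05 or less by edgeR's quasi-likelihood test, 0 of the 9 passed, as did 0 of all 15942 genes (background 0%), while 2386 genes (15%) had an unadjusted p under 0.05 and DESeq2 called 200 genes, none of the 9 among them. The median log2 difference of the 9 was -0.02, beside 0.00 over all tested genes. Each library is 1 mouse, and the p-values measure the spread between these mice. In a piece of tissue, fewer cells that express a gene and less of its RNA per cell cannot be told apart.

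Cops8 came closest. It was at 52.4, 52.7, 55.4 and 53.1 CPM in WT libraries, at 53.1, 52.1 and 47.9 CPM in first-run MFN2 libraries and at 44.1, 40.5, 45.5, 45.4 and 45.2 CPM in second-run MFN2 libraries. The second run lay below all other libraries, the first overlapped WT, and 7 of 8 MFN2 libraries lay below every WT library. Its mean was 53.4 ± 1.35 CPM in WT and 46.7 ± 4.19 CPM in MFN2 libraries (SD, n = 4 and 8), with a log2 difference of -0.19 (SE 0.071, adjusted p = 0.279 by edgeR), and -0.20 (adjusted p = 0.151 by edgeR) without library 43. Cops5, the protease, was at 46.2, 45.4, 50.7 and 51.0 CPM in WT libraries and had a lowest, median and highest level of 39.0, 45.1 and 50.0 CPM in MFN2 libraries. Of the 8, 5 lay below every WT library, and the log2 difference was -0.10 (SE 0.071, adjusted p = 0.494 by edgeR).

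The other 7 subunits overlapped between genotypes, with log2 differences from -0.06 (Cops7b) to 0.10 (Cops3). Intervals of 2 SE about the difference ran from -0.18 to 0.10 for Gps1, from -0.17 to 0.20 for Cops2, from -0.07 to 0.26 for Cops3 and from -0.21 to 0.20 for Cops4. They ran from -0.19 to 0.18 for Cops6, from -0.18 to 0.14 for Cops7a and from -0.28 to 0.16 for Cops7b. Without library 43 the differences were 0.07 (SE 0.050) for Cops2, 0.13 (SE 0.065) for Cops3 and 0.05 (SE 0.062) for Cops4. Cops6 was then at 0.04 (SE 0.072), Gps1 at -0.04 (SE 0.067), Cops7a at -0.04 (SE 0.074) and Cops7b at -0.09 (SE 0.104), and none passed. In counts simulated from the mean levels and sizes of these libraries with a log2 fold of 0.5, the same MFN2 against WT fit recovered 58% of 200 changed genes, tested among 15781. The simulation gave every gene a dispersion of 0.02 and held no difference between runs and no library like 43. Its share is therefore not the power of the real comparison, and smaller differences were not simulated.

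**Figure D3:**
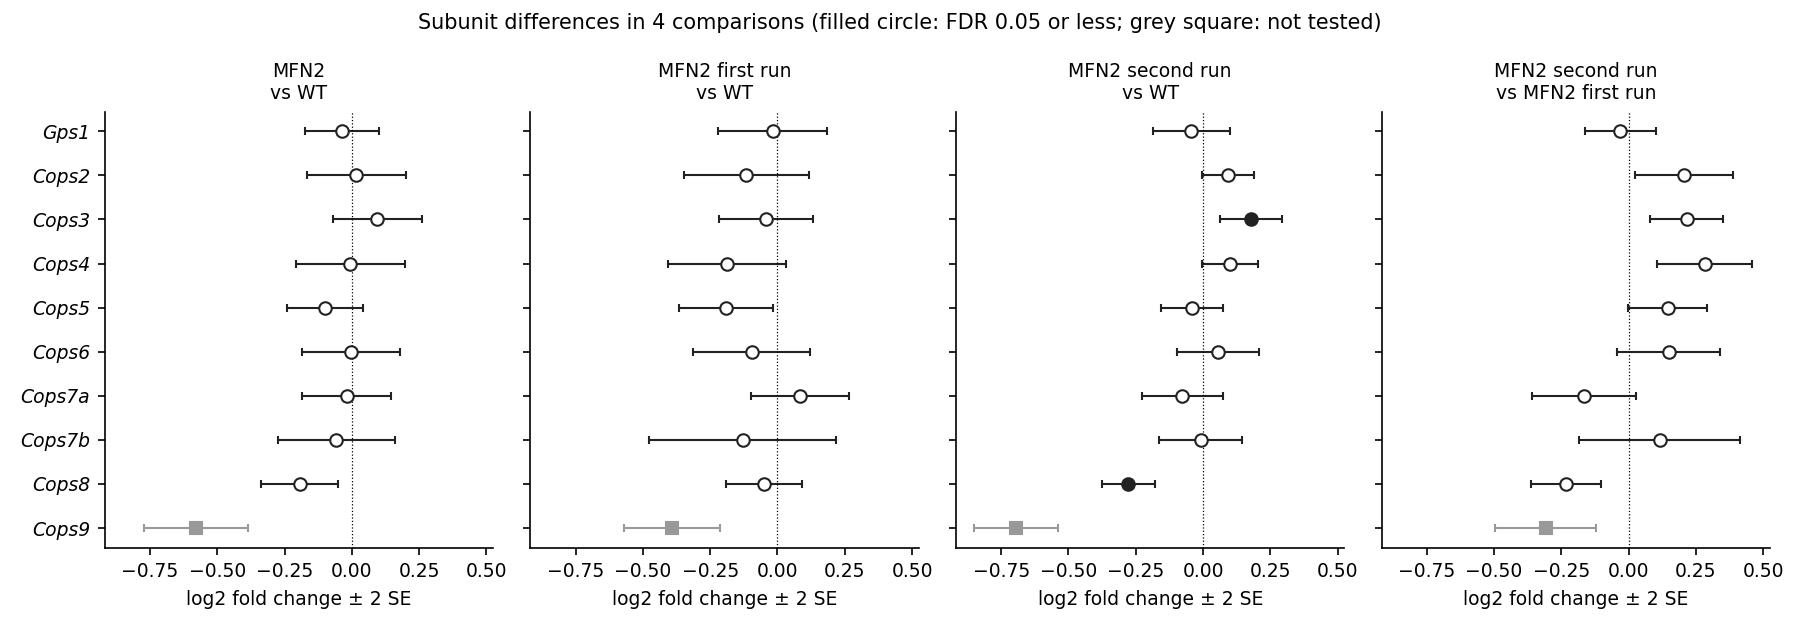
Log2 fold change of each subunit with 2 SE on either side in 4 comparisons, where filled circles mark an adjusted p of 0.05 or less, open circles those above it and grey squares Cops9, which was not tested. Of the tested subunits only Cops8 (-0.28) and Cops3 (0.18) are filled, both in the second run against WT.

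Split by run, 2 of the 9 subunits passed in the second run of MFN2 libraries against WT, beside a background of 23.8% of 15743 genes. Cops8 fell, with a log2 difference of -0.28 (SE 0.050, adjusted p = 0.00244 by edgeR) and all 5 libraries below every WT library, where 10.6% of genes were lower without overlap. Cops3 rose by 0.18 (SE 0.058, adjusted p = 0.0409 by edgeR), to 61.2, 59.5, 65.3, 65.96 and 60.005 CPM from 52.7, 51.2, 56.9 and 59.5 CPM in WT libraries. Of these 5 libraries 4 lay above every WT library, and library 73 lay just under the highest. A share of 2 in 9 is close to the background. In other settings 1 to 4 of the 9 passed, 4 with the library size as the only scaling (26.5% of all genes). Over 17 other settings Cops8 passed in every one (adjusted p up to 0.0107 by edgeR or another tool), also without library 73. Cops3 did not pass in 7 of the 17 (adjusted p up to 0.127), among them those without WT library 44, 45 or 46 or MFN2 library 72, 74 or 75. Cops2 and Cops4 had log2 differences of 0.09 and 0.10 (adjusted p = 0.173 and 0.183 by edgeR), and the other 5 lay between -0.08 and 0.06.

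In the first run, 0 of the 9 passed, beside 1 of 15200 genes (0.00658%). Cops5 was lower in all 3 first-run MFN2 libraries, at 45.01, 39.0 and 41.6 CPM, than in every WT library (log2 difference -0.19, SE 0.087, adjusted p = 0.622 by edgeR), where 3.78% of genes were lower without overlap. Cops8 differed by -0.05 (SE 0.071) with library 43 and by -0.01 (SE 0.070) without it. Cops4 differed by -0.19 (SE 0.110) with library 43, which was at 43.4 CPM, and by -0.08 (SE 0.079) without it. Cops2 and Cops3 differed by -0.11 and -0.04 with library 43 and by 0.01 and 0.01 without it. For Cops7b the difference went from -0.13 (SE 0.173) to -0.32 (SE 0.142) when library 43 was left out. The 2 splits share their WT libraries, so their values stand side by side and are not independent.

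The 5 second-run and 3 first-run MFN2 libraries were then compared with each other, a contrast within genotype. Cops9 was chosen on values of these libraries and is given here too without a test. At an adjusted p of 0.05 or less, 0 of the other 9 subunits passed, beside 2.19% of 15633 genes. The differences ran in 2 directions. Cops8 and Cops9 were lower in every second-run library than in every first-run MFN2 library (9.56% of all genes), with log2 differences of -0.23 (SE 0.065) and -0.31 (SE 0.093), and an adjusted p of 0.0921 by edgeR for Cops8. Cops2, Cops3 and Cops4 were higher in all 5, and Cops5 was too when scaled within these 8 libraries, but in 4 of 5 on the scale of all 12 (8.42% of all genes). Their log2 differences were 0.21, 0.22, 0.28 and 0.14, with adjusted p from 0.111 to 0.256 by edgeR.

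Library 43 weighed on this contrast. Without it, 2375 genes (15.3%) passed and Cops8 was among them (-0.26, SE 0.066, adjusted p = 0.0236 by edgeR). The difference of Cops9 was -0.30 (SE 0.109), and those of Cops2 and Cops4 shrank to 0.09 and 0.18. DESeq2 on all 8 libraries called 1795 genes (11.6%), with Cops8 at -0.22 (adjusted p = 0.0367 by DESeq2). Without library 73, edgeR called 34 genes (0.22%) and Cops8 differed by -0.19 (adjusted p = 0.210 by edgeR).

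The same Cops9 counts can be set against its partners within a library, which describes the pattern Cops9 was chosen for and is no further support for it. Its log2 CPM lay below the mean of the other 9 by 1.41 ± 0.094 in WT libraries, by 1.71 ± 0.065 in first-run MFN2 libraries and by 2.10 ± 0.13 in second-run MFN2 libraries (SD, n = 4, 3 and 5). As a share of the counts of all 10 subunits, it made up 3.52% ± 0.246, 2.84% ± 0.213 and 2.18% ± 0.183. The mean log2 CPM of the other 9 was 5.68 ± 0.067 in WT and 5.65 ± 0.069 in MFN2 libraries. Cops8 lay 0.06 ± 0.047 above the mean of the remaining 8 subunits in WT libraries and 0.10 ± 0.034 above it in first-run MFN2 libraries, but -0.25 ± 0.044 from it in the second run. Within the MFN2 genotype, every second-run library lay below every first-run library in both measures.

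**Figure D4:**
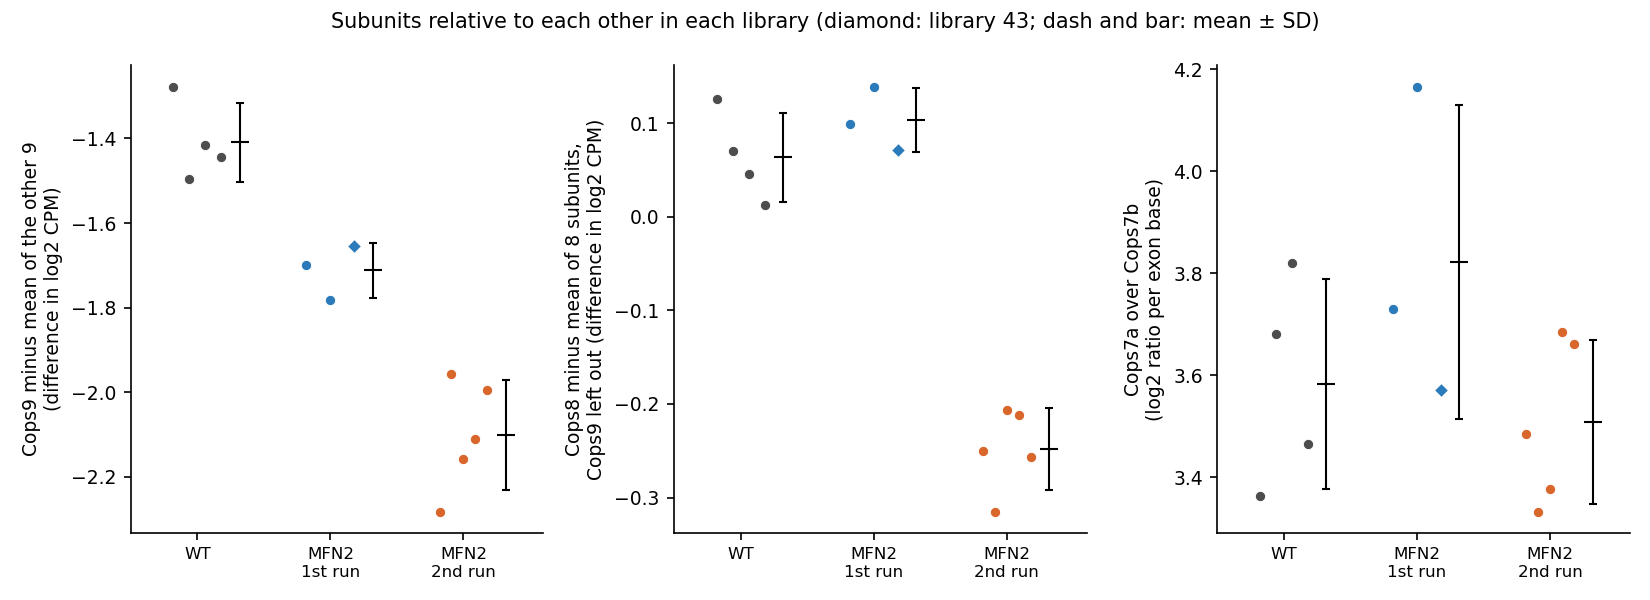
Per library, Cops9 and Cops8 relative to the mean of the other subunits (difference in log2 CPM) and the log2 ratio of Cops7a to Cops7b per exon base, with mean and SD for WT (n = 4), MFN2 first run (n = 3) and MFN2 second run (n = 5); the axes do not start at 0. Cops9 steps down over the 3 sets (-1.41, -1.71, -2.10), Cops8 is low in the second run (-0.25), and Cops7a to Cops7b overlaps between all sets.

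For the interchangeable Cops7a and Cops7b no difference in balance was detected. Cops7a exceeded Cops7b per exon base 12.1 ± 1.73-fold in WT (SD, n = 4) and 12.5 ± 2.47-fold in MFN2 libraries (SD, n = 8), with a log2 difference in the ratio of 0.04 (p = 0.788, two-sided exact permutation test over 495 splits, smallest possible p 0.00202). Against WT the second run alone gave -0.07 (p = 0.556, exact permutation, 126 splits) and the first 0.24 (p = 0.257, exact permutation, 35 splits). The first-run value depends on single libraries, with log2 ratios of 3.73, 4.17 and 3.57 in 41, 42 and 43 against a WT mean of 3.58.

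The enzymes and ligases on which the complex acts were read from hand-made lists. In all 8 MFN2 against 4 WT mice, 0 genes of any list passed, the background being 0%. Medians of the log2 difference were 0.06 for 10 cullin and RING genes, -0.01 for 11 genes of NEDD8 and its enzymes, -0.02 for 8 adaptors and exchange factors, 0.00 for 20 substrate receptors and -0.04 for 8 partners of the complex. They were -0.06 for 9 lid subunits and -0.02 for 14 eIF3 subunits. Lowest in p were Cul4a, a cullin scaffold (0.15, SE 0.046), Rnf7, a RING subunit (-0.44, SE 0.160), Ube2m, the E2 enzyme that carries NEDD8 (-0.34, SE 0.152) and Dcun1d1, a NEDD8 co-E3 (0.16, SE 0.072). Among adaptors and receptors they were Eloc (-0.17, SE 0.071), Elob (-0.16, SE 0.077), and the F-box proteins Fbxo31 (-0.21, SE 0.077) and Fbxw11 (-0.22, SE 0.080). Among partners they were the deubiquitinase Usp15 (0.13, SE 0.064) and Csnk2a1 (-0.12, SE 0.063), a catalytic subunit of casein kinase 2. In the sister complexes they were Psmd3 (-0.13, SE 0.069), Psmd13 (-0.11, SE 0.058), Eif3f (-0.25, SE 0.072) and Eif3e (0.16, SE 0.055).

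In the second run against WT, where 11.1% of all genes were higher and 12.7% lower past the threshold, 3 cullins rose, Cul1 by 0.22 (SE 0.044), Cul4a by 0.16 (SE 0.044) and Cul3 by 0.16 (SE 0.047). Rnf7 fell by 0.53 (SE 0.102, adjusted p = 0.00455 by edgeR). Of the NEDD8 genes, Nae1, a subunit of the E1 enzyme (0.25, SE 0.061), and Dcun1d1 (0.23, SE 0.055) rose. Ube2m fell by 0.59 (SE 0.079, adjusted p = 0.000635 by edgeR). Glmn, which binds RING subunits, rose by 0.36 (SE 0.083), and Eloc fell by 0.23 (SE 0.051). Of 20 substrate receptors 0 rose and 5 fell, namely Fbxw11, Kctd10, Fbxo31, Btrc and Klhl9, by 0.31, 0.28, 0.27, 0.21 and 0.20. Usp15 rose (0.19, SE 0.041), while Csnk2a1 and Cacul1, a cullin-associated protein, fell by 0.16 and 0.21. Among the genes named here, Cul3, Cul4a, Btrc, Klhl9, Csnk2a1 and Cacul1 lost the call in 6, 2, 1, 1, 9 and 6 of 17 other settings, and the others kept it in all 17.

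Between the 2 runs of MFN2 libraries, 3 of the 80 genes of these lists passed, beside 2.19% of all 15633 genes, a share of the same order. They were Ube2m (-0.59, SE 0.091, adjusted p = 0.0242 by edgeR), Kctd10 (-0.37, SE 0.072, adjusted p = 0.0436 by edgeR) and Btrc (-0.31, SE 0.065, adjusted p = 0.0487 by edgeR). Ube2m was at 80.8, 93.2, 90.8 and 78.4 CPM in WT libraries, at 84.6, 85.9 and 84.0 CPM in first-run MFN2 libraries and at 53.1, 49.3, 57.3, 63.8 and 62.9 CPM in the second run. The first run of MFN2 libraries lay within WT and the second wholly below. These calls were not stable. Without library 43, 2 of 11 genes of NEDD8 and its enzymes and 6 of 20 receptors passed, beside 15.3% of all 15509 genes, and without any 1 of the other 7 libraries 0 of either list passed, beside 0.2% to 1.5% of all genes. Over 16 other settings in all, between 0 and 2 genes of NEDD8 and its enzymes and between 0 and 6 receptors passed between the runs, and the count differed from that above in 9 and 14 of the 16. In first-run MFN2 against WT mice none of the listed genes passed.

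Subunits of the sister complexes went both ways. In the second run against WT, 1 of 9 lid and 5 of 14 eIF3 subunits passed, beside 23.8% of all genes, and nothing is read from these shares. Of 9 lid subunits, 1 fell, Psmd3 by 0.20 (SE 0.056), and 0 rose. Of 14 eIF3 subunits, Eif3a (0.22), Eif3c (0.19) and Eif3e (0.15) rose and Eif3f and Eif3h fell by 0.33 and 0.23. Psmd3 lost the call in 4 and Eif3e in 6 of 17 other settings. Per length over the 12 libraries, the most abundant genes, each within its own list, were Eif3c (75.9 RPKM), Psmd7 (43.5), Skp1a (149) and Nedd8 (49.5). For the remaining lists they were Spop (44.1), Rnf7 (36.8) and Csnk2b (26.6 RPKM), compared with 34.99 RPKM for Cops2.

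**Figure D5:**
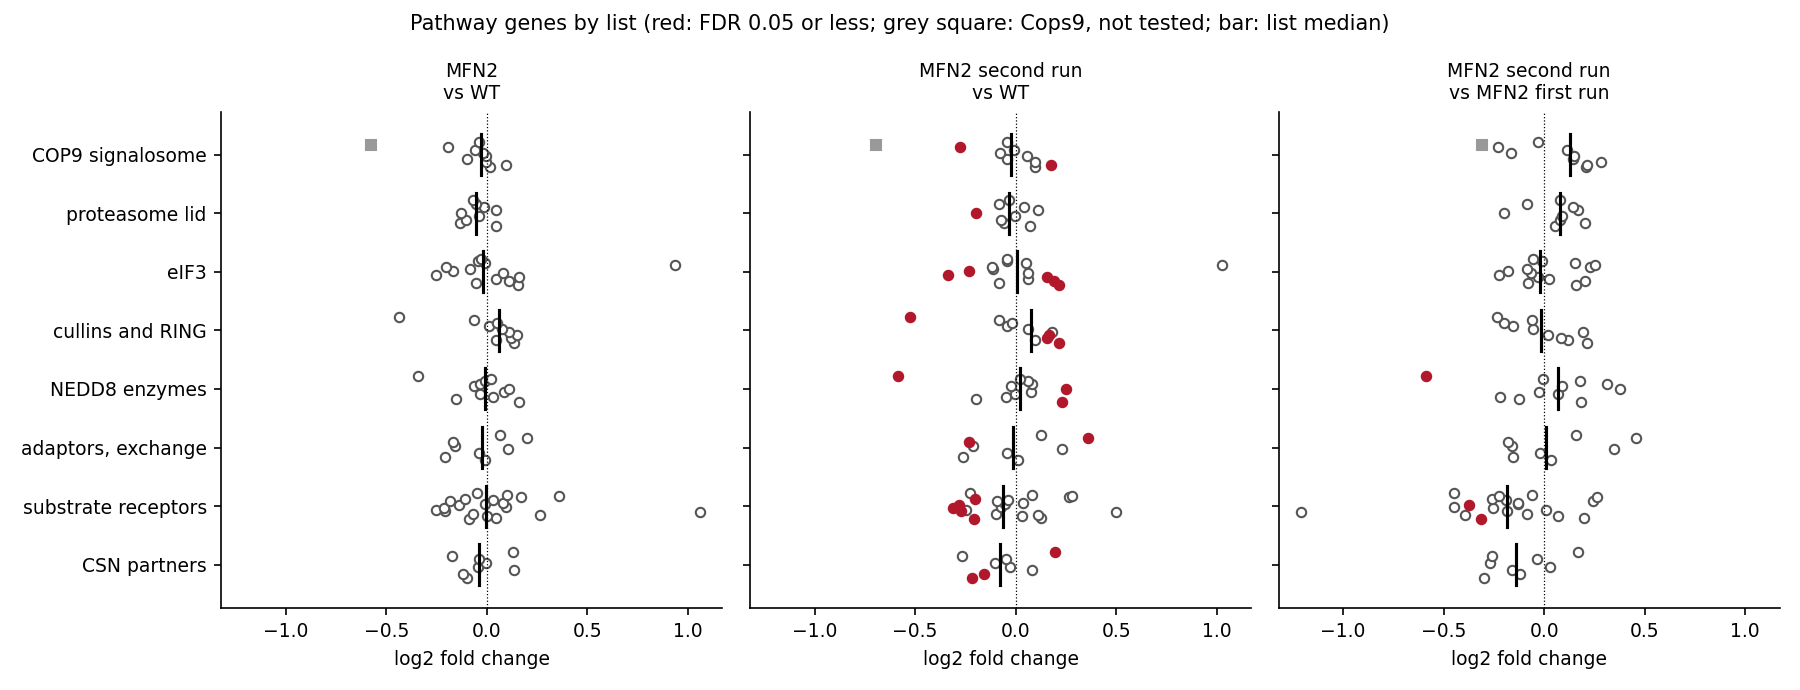
Log2 fold change of every tested gene of the 8 lists in 3 comparisons, with bars at list medians, red points at an adjusted p of 0.05 or less and a grey square for Cops9, which was not tested. There are no red points in all MFN2 against WT mice, red points on both sides in the second run against WT, and Ube2m, Kctd10 and Btrc between runs.

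Among the genes whose log2 CPM followed that of Cops9 most closely across the 12 libraries were Eif3f (Pearson r = 0.930), Prdx3 (0.924), Psmb2 (0.923) and Cdr1 (0.922). The points share the genotypes, runs and library 43, and these r values are a ranking over all tested genes given with no test. Prdx3, the mitochondrial peroxiredoxin, was at 25.0 ± 2.40 CPM in MFN2 and 32.1 ± 2.84 CPM in WT mice (SD, n = 8 and 4), and Psmb2, a proteasome core subunit, at 24.3 ± 2.73 and 31.1 ± 1.05 CPM. Cops9 was chosen for its low MFN2 levels, so lower MFN2 means of genes that follow it come with that choice. Reads at Cdr1 may come from the RNA of the opposite strand, since strand use in counting is not stated.

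The length of Cops9 sets it among genes that were lower somewhat more often than others. Against WT, genes with exon lengths within 20% of that of Cops9 had a median log2 difference of -0.05 in the first run and -0.07 in the second. The 1065 tested genes with exon lengths within 20% of that of Cops9 had a median log2 difference of -0.06 between MFN2 and WT mice, and the 69 genes whose principal transcript has 500 bases or less had -0.05, beside -0.58 for Cops9. In the second run against WT, 17.5% of the class within 20% and 23.9% of 67 genes with the short transcripts passed as lower, beside 12.7% of all genes. Between the runs of MFN2 libraries the class within 20% had a median of -0.04, beside -0.31 for Cops9. Genes with 1000 exon bases or less, shorter than Cops9, had medians above 0 in the second run, at 0.11 against WT and 0.19 against the first run of MFN2 libraries. In the first run against WT their median was -0.08. The part of length in the Cops9 level was not tested.

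Sums of markers of other cells also differed between some sets of libraries, and how they vary with the subunits from library to library was not computed. The sum of 3 ependymal markers, led by Foxj1, was 9.67 to 22.8 CPM in MFN2 libraries and 23.6 to 28.8 CPM in WT libraries. Only the sums lay apart, and each of the 3 markers alone overlapped between genotypes. Foxj1 was at 18.1 CPM in MFN2 library 42 and at 16.8 CPM in WT library 44. Of all single genes tested, 1.07% were lower in every MFN2 than in every WT library. All 3 markers had a lower mean in MFN2 mice, and their lowest sum was in library 43. In the second run, where Cops8 fell, the sum of 5 astrocyte markers, led by Slc1a2, was 5699 to 7090 CPM. It was 7687 to 8648 CPM in WT libraries. First-run MFN2 libraries 41, 42 and 43 were at 9426, 6883 and 5613 CPM. The sum of 5 microglial markers, led by Csf1r, was 78.7 to 100.9 CPM in the second run against 105 to 140 CPM in WT libraries. In libraries 41, 42 and 43 it was 164, 102 and 166 CPM. Of all single genes tested, 10.6% were lower in every second-run library than in every WT library. The sum of 8 forebrain markers, led by Camk2a, was 140.3 to 207 CPM in the 7 MFN2 libraries other than 43 and 4685 CPM in library 43, against 108.5 to 142 CPM in WT libraries. Every MFN2 library but 73 lay above every WT library, and in the second run 1 of the 8 markers had a lower mean than in WT mice. The other sums overlapped between MFN2 and WT libraries, at 2523 to 3353 against 2741 to 3153 CPM for neuronal markers, 5379 to 22872 against 14618 to 18532 CPM for oligodendrocyte markers and 73.5 to 115 against 77.4 to 102 CPM for endothelial markers. They were at 139 to 344 against 102 to 471 CPM for meningeal and fibroblast markers and 83.4 to 263 against 57.9 to 161 CPM for blood markers. The highest neuronal and the lowest oligodendrocyte sum were those of library 43. The part of ependymal cells, astrocytes, microglia and forebrain markers in the levels of Cops8 and Cops9 was not tested.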

How the data were processed

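The authors trimmed total RNA reads of each spinal cord, aligned them with STAR to GRCm38.p6 and deposited counts per gene for each library, as whole numbers that are not normalized; the versions of STAR and of the trimming step are not given in the sources used here. Groups came from the labels, and libraries from the numbers in their titles. Depths of 19359454 to 26738930 counts per library mean that Cops9 rests on 239 to 457 counts per library, which limits the precision of its level. No pair of libraries within a genotype was a duplicate, and pairs between genotypes were not compared. Genes with a CPM over 1 in at least 3 libraries were kept, separately in each comparison. Counts were scaled by TMM and fitted with edgeR's quasi-likelihood test in edgeR 4.0.16 (R 4.3.3), over all genes, with Benjamini-Hochberg adjustment and a threshold of 0.05. Ratios used a pseudocount of 2. DESeq2 1.42.0 and limma 3.58.1 gave alternatives, as did other filters and scalings and leaving out each library. The fit was tested on simulated data. CPM are scaled by TMM over all 12 libraries.

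The members and lists were chosen with earlier results of these data known. Named genes are the subunits, list genes past the threshold or, where none passed, the 2 of lowest p, the most abundant per length, and the 5 most like Cops9, of which 1 is not reported here. The marker lists reported cover neurons, motor neurons, oligodendrocytes, astrocytes, microglia, Schwann cells (3 markers), endothelium, meninges and fibroblasts, ependyma, blood, skeletal muscle, forebrain and caudal Hox genes.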

Additional observations from a re-analysis of the deposited data

Results flagged for a closer look

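In the 8 MFN2 mice, Cops2 in library 43, at 91.9 CPM, lay below the next lowest library by 0.722 of the whole range of the group. Cops4 in the same library, at 43.4 CPM, lay below the next by 0.54 of the range. Each exceeds Dixon's 95% critical value for 8 samples. Of 22 groups checked, 2 exceeded it, and chance gives about 1 in 20. Library 43 is also the one with high forebrain and low caudal Hox markers, and the part of these in the Cops2 and Cops4 levels was not tested.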

How the results depend on the processing

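No paired analysis was possible because no library number occurs in both genotypes. Over 25 alternatives the log2 difference of Cops9 between MFN2 and WT mice ranged from -0.70 to -0.39, and those of Cops5, Cops7b and Cops8 stayed negative. DESeq2 called 200 genes between MFN2 and WT mice, the second run alone 3746 with 2 subunits other than Cops9, the first run 1, and libraries 41 and 42 (a choice made after seeing the data) 1. Leaving out 1 library gave 0 to 19 genes (19 without library 43, 7 without 41) and 0 subunits other than Cops9. The other alternatives gave 0 genes.

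Small differences changed sign, and the cause was not tested. With a CPM over 1 in every library, Cops4 was at 0.0023 and Cops6 at 0.0044; with the library size as the only scaling, Gps1 was at 0.014, Cops4 at 0.048, Cops6 at 0.049 and Cops7a at 0.031. With upper quartile scaling Cops4 was at 0.0052 and Cops6 at 0.0067, and by DESeq2 at 0.0012 and 0.0038. With the run as a term, Cops2 was at -0.13, Cops3 at -0.057 and Cops7a at 0.068. The second run against WT put Cops4 at 0.099 and Cops6 at 0.056, the first run put Cops2 at -0.11, Cops3 at -0.042 and Cops7a at 0.085, and libraries 41 and 42, without library 43, put Cops2 at 0.0075, Cops3 at 0.011 and Cops7a at 0.038. Leaving out 1 library, Gps1 ranged from -0.11 to 0.026, Cops2 from -0.012 to 0.069, Cops4 from -0.034 to 0.050, Cops6 from -0.050 to 0.058 and Cops7a from -0.063 to 0.019.

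Between the runs of MFN2 libraries, DESeq2 called 1795 genes and 1 subunit other than Cops9. Leaving out 1 library gave 31 to 2375 genes (2375 without library 43, 31 without 74) and 0 to 1 such subunits, Cops8 without library 43. Gps1 was at 0.042 with the library size as the only scaling and at 0.028 with the upper quartile, and ranged from -0.049 to 0.013 when 1 library was left out, while Cops7b ranged from -0.047 to 0.31. The log2 ratio of Cops7a to Cops7b was -0.074 for the second run against WT and from -0.034 to 0.12 when 1 library was left out. In the second run against WT, with alternatives chosen after seeing the data, 1 of the 9 subunits other than Cops9 passed with no filter (11% of all genes), 4 with the library size as the only scaling (26.5%), and 1 to 2 when 1 library was left out (15% to 28.9%).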
